A study of Mus musculus with 10 samples.

Results

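The 42 genes examined here encode neuropeptide precursors, granins and the enzymes that process them, and were looked up by name in expression tables of mouse somatosensory cortex that held 55475 distinct gene names. They were 31 peptide precursors, 6 granins and 5 genes for processing (4 enzymes and the inhibitor of 1 of them). The names of Oxt and Pam were joined with those of neighbouring genes in the 2.5-month table and were read there as joined loci. RNA was sequenced in bulk tissue to ask, by the title of the series, whether neurons need the histone methyltransferase NSD1 to gain and keep their identity. The first model, Nsd1Nex-cKO, was sampled at 2.5 months with 3 knockout libraries (Nex_cKO) and 3 control libraries (Nex_Ctrl). The second model, Nsd1Camk2a-cKO, was sampled at 3 months with 2 knockout libraries (Camk2a_cKO) and 2 control libraries (Camk2a_Ctrl).

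By their names, the drivers are Cre recombinases expressed from Nex (Neurod6), which is active in young postmitotic excitatory neurons, and from Camk2a, which comes on in excitatory neurons after birth. Neither driver targets the GABAergic interneurons that make most cortical neuropeptides. The genotype given for controls was Nsd1fl/+ in both Camk2a_Ctrl libraries and in replicates 1 and 2 of Nex_Ctrl, and Nsd1fl/fl in the third, so the controls carry floxed alleles too. The labels do not say whether controls carried Cre, or whether each library came from a separate mouse, so p-values measure the spread between these libraries.

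Neuropeptides are made as long precursors that enter the secretory pathway and are packed into dense core vesicles. There, prohormone convertases cut them at pairs of basic residues, carboxypeptidase E trims the ends, and an amidating enzyme finishes many of them. Granins are acidic proteins of the same vesicles, which help to form them and are themselves cut into peptides. In cortex, somatostatin, neuropeptide Y, vasoactive intestinal peptide and cholecystokinin mark classes of interneuron, and cholecystokinin and pituitary adenylate cyclase-activating peptide are also made by excitatory neurons.

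The promoters of the genes offered one feature that the choice of genes did not use. The octamer TGACGTCA, which reads the same on both strands, is the full cAMP response element bound by the factor CREB and is known from the rat somatostatin promoter. RefSeq (GRCm38.p6) gave windows from 250 bases before to 50 bases after the start site for 36 of the 42 genes, in 39 windows of 300 bases. Penk, Crh, Grp, Pnoc, Vgf and Cpe had no window and were not searched. The octamer lay in the windows of 6 genes, 15.38% of the 39, and in 588 of all 32851 windows (1.79%). Both genes that fell in Nex_cKO cortex are among the 6, and so are Sst, Scg2 and Chgb, which were tested and not called. The 6 sites are shown with their flanks, with the octamer in capitals and each sequence read along the gene.
Sst (chr16:23890874-23890903, reverse strand): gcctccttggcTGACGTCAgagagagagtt
Cartpt (chr13:99900777-99900806, reverse strand): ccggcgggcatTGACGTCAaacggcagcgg
Ucn (chr5:31138921-31138950, reverse strand): atgttcttcgcTGACGTCAgtcggagctgt
Scg2 (chr1:79440076-79440105, reverse strand): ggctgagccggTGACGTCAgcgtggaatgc
Chgb (chr2:132781559-132781588, forward strand): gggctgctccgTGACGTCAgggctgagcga
Pcsk1 (chr13:75089768-75089797, forward strand): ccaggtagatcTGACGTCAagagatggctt

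Counted from the start site, the first base of the octamer stood at -48 in Sst, -112 in Cartpt, -44 in Ucn, -68 in Scg2, -72 in Chgb and -78 in Pcsk1. A match describes the letters only and shows no binding. The 4 precursors that were higher in Nex_cKO cortex had no such octamer in any of their windows, which says only that these letters are not there. Ucn, which holds the octamer, was under the filter in the Nex model, and with no filter on low values it was higher in Nex_cKO than in Nex_Ctrl libraries (log2 change 0.69, limma adjusted p = 0.0491). The upstream 250 bases of the 4 higher precursors, 1 window each, are shown for comparison, with each CG dinucleotide in capitals, since CG is the site of DNA methylation.
Tac2 (chr10:127724228-127724477, forward strand): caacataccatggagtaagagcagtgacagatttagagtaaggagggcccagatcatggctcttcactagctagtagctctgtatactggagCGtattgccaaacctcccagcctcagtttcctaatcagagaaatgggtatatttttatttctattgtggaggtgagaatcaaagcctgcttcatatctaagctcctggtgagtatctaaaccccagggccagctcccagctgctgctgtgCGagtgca
Adcyap1 (chr17:93198767-93199016, forward strand): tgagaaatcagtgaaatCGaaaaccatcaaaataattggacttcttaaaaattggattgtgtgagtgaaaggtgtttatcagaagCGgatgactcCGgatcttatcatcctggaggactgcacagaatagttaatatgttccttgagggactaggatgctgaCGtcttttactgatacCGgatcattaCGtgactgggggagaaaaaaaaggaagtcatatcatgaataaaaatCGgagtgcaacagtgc
Pdyn (chr2:129699939-129700188, reverse strand): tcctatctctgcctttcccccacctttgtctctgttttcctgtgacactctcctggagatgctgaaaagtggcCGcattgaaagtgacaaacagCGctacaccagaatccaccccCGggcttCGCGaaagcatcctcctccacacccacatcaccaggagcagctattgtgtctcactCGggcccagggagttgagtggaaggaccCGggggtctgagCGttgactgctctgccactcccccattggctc
Avp (chr2:130582589-130582838, reverse strand): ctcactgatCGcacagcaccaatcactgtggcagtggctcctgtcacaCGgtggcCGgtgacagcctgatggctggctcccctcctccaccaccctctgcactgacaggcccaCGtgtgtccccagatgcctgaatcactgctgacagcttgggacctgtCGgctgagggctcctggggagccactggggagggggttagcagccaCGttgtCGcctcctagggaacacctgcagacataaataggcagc

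Over 300 bases, these windows held 3 CG in Tac2, 7 in Adcyap1, 11 in Pdyn and 8 in Avp. A second window, not shown, held 10 CG in Adcyap1 and 5 in Pdyn. The windows of the genes that fell held 26 CG in Cartpt and 13 in Pcsk1. The median over all windows was 7, with quartiles of 3 and 20.

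Values were deposited as FPKM, fragments per kilobase of transcript scaled to the mapped fragments of a library, which can be set side by side between genes of one table but not between the tables. The excitatory markers of the labelled tissue were present, with Slc17a7, the vesicular glutamate transporter of cortical neurons, at 464 to 577 FPKM in Nex_cKO and 548 to 589 FPKM in Nex_Ctrl libraries. Nsd1 itself was joined with Prelid1 in the 2.5-month table, where the locus had 91.0, 118 and 106 FPKM in Nex_cKO and 130, 125 and 141 FPKM in Nex_Ctrl libraries (adjusted p = 0.0863). In the 3-month table Nsd1 had 4.31 and 4.99 FPKM in Camk2a_cKO and 5.61 and 8.87 FPKM in Camk2a_Ctrl libraries (adjusted p = 0.685). The Camk2a libraries held 16901717 to 20074933 reads recovered from FPKM, and the depth of the Nex libraries is unknown. Nex_cKO replicate 3 stood apart, with the Y-linked Ddx3y at 16.2 FPKM where the other 5 Nex libraries had it at 0, and with 41.6% of its FPKM in unnamed rows against 2.33% to 19.4% in the others.

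The first comparison asks which of these genes differ in adult cortex after deletion of Nsd1 in young excitatory neurons. In Nex_cKO cortex the precursors of neurokinin B (Tac2), pituitary adenylate cyclase-activating peptide (Adcyap1), dynorphins (Pdyn) and vasopressin (Avp) were higher. The CART precursor (Cartpt) and the prohormone convertase Pcsk1 were lower. The abundant precursors Sst, Npy, Vip and Cck, the granins, and the other processing genes did not pass the test. With limma on log2(FPKM + 1) and Benjamini-Hochberg adjustment over 12528 genes and loci, 6 of the 32 genes tested had adjusted p under 0.05. Without Avp, which entered the test only through its knockout libraries, these were 5 of 31, with 3 of them higher. Over all tested genes 8.53% were called, 4.47% as higher and 4.06% as lower. The 32 were those that reached FPKM 1 in 3 or more libraries. Of these 14 had a positive and 18 a negative log2 change, with a median of -0.07 against -0.04 over all tested genes, and with quantile normalization the signs were 17 and 15. Before adjustment for many tests, 12 of the 32 had unadjusted p under 0.05 (4 higher and 8 lower in value), against 23.5% of all tested genes. The cKO and control values did not overlap for 13 of the 32, against 30.4% of all tested genes. Without Nex_cKO replicate 3, 5 genes were higher and 2 lower. The lower calls depended on single libraries: there were 8 without Nex_cKO replicate 2, and 1, Cartpt, without Nex_Ctrl replicate 2 or replicate 3. Lower calls over all tested genes moved the same way, from 509 to 685 without Nex_cKO replicate 2. They fell to 205 without Nex_Ctrl replicate 2 and to 161 without replicate 3, so this dependence is not particular to these genes.

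Tac2 (ENSMUSG00000025400, chromosome 10, 127724478 to 127731768) encodes the precursor of neurokinin B, a tachykinin that acts on the receptor encoded by Tacr3. It had 29.1, 29.97 and 23.1 FPKM in Nex_cKO and 7.78, 6.55 and 7.12 FPKM in Nex_Ctrl libraries. The lowest cKO value lay far above the highest control value. The means were 27.4 ± 3.73 FPKM in Nex_cKO and 7.15 ± 0.618 FPKM in Nex_Ctrl cortex (SD, n = 3 each), a ratio of 3.83 and a log2 change of 1.80 (SE 0.11, adjusted p = 2.82e-05). Its sister tachykinin gene Tac1, the precursor of substance P, had 5.60, 4.66 and 3.75 FPKM in Nex_cKO and 4.54, 5.09 and 5.87 FPKM in Nex_Ctrl libraries. Its groups overlapped (log2 change -0.13, adjusted p = 0.625).

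Adcyap1 (ENSMUSG00000024256, chromosome 17, 93199422 to 93205485) encodes pituitary adenylate cyclase-activating peptide, which raises cAMP in its target cells. It had 11.9, 15.2 and 12.2 FPKM in Nex_cKO and 5.01, 4.52 and 5.70 FPKM in Nex_Ctrl libraries. All 3 cKO libraries were above every control library. The means were 13.1 ± 1.78 FPKM in Nex_cKO and 5.08 ± 0.594 FPKM in Nex_Ctrl cortex (SD, n = 3 each), a ratio of 2.58 and a log2 change of 1.21 (SE 0.12, adjusted p = 0.000269). Vip, whose peptide is a relative of the Adcyap1 product and marks an interneuron class, had 32.5, 35.0 and 29.9 FPKM in Nex_cKO and 24.7, 25.2 and 32.3 FPKM in Nex_Ctrl libraries. Nex_Ctrl replicate 3 fell within the range of the cKO libraries (log2 change 0.25, adjusted p = 0.22).

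The opioid precursors did not move as a group. Pdyn (ENSMUSG00000027400, chromosome 2, 129686565 to 129699844), the source of the dynorphins, had 15.3, 15.5 and 14.96 FPKM in Nex_cKO and 8.22, 10.9 and 8.62 FPKM in Nex_Ctrl libraries. The cKO libraries were close to each other and all above the controls. Its means were 15.2 ± 0.256 FPKM in Nex_cKO and 9.25 ± 1.45 FPKM in Nex_Ctrl cortex (SD, n = 3 each), a ratio of 1.65 and a log2 change of 0.67 (SE 0.10, adjusted p = 0.00442). Penk, the source of the enkephalins, had 11.7, 18.1 and 11.7 FPKM in Nex_cKO and 23.4, 18.8 and 17.2 FPKM in Nex_Ctrl libraries. Nex_cKO replicate 2 lay within the control range, and the other cKO libraries lay below it (log2 change -0.50, adjusted p = 0.116). Without that library the log2 change of Penk was -0.70 (adjusted p = 0.0114). Pnoc, the precursor of nociceptin, had 2.41, 3.88 and 2.54 FPKM in Nex_cKO and 2.24, 2.56 and 2.98 FPKM in Nex_Ctrl libraries, which overlapped (log2 change 0.12, adjusted p = 0.694). Its sign turned without Nex_cKO replicate 2 (log2 change -0.04). Pomc, the precursor of beta-endorphin and melanocortins, had 1.48 to 1.86 FPKM in Nex_cKO and 0.629 to 1.59 FPKM in Nex_Ctrl libraries.

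Avp (ENSMUSG00000037727, chromosome 2, 130580620 to 130582554) encodes vasopressin, a hormone of hypothalamic neurons. It had 1.91, 9.34 and 4.17 FPKM in Nex_cKO libraries and 0.973 FPKM in Nex_Ctrl replicate 1, and was listed at 0 in Nex_Ctrl replicates 2 and 3. The cKO libraries differed several times over among themselves, and all were above the controls. The log2 change was 2.10 (SE 0.43, adjusted p = 0.019), a fitted value that depends on the pseudocount of 1. Avp entered the test only through its cKO libraries, so it had to differ, and its direction supports nothing. Its call was lost without Nex_Ctrl replicate 2 (adjusted p = 0.0741) and without Nex_Ctrl replicate 3 (adjusted p = 0.077).

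Other hypothalamic transcripts are the measure of neighbouring tissue that bears on Avp. The summed FPKM of 11 single-gene rows for hypothalamic markers was 1.65, 2.88 and 1.35 in Nex_cKO and 1.74, 1.11 and 1.60 in Nex_Ctrl libraries. Hcrt, the orexin precursor, had 0.310 to 0.571 FPKM in Nex_cKO and 0 to 0.188 FPKM in Nex_Ctrl libraries. Hdc went the other way without overlap, at 0.214 to 0.242 FPKM in Nex_cKO and 0.296 to 0.467 FPKM in Nex_Ctrl libraries. Agrp had 0.389 to 0.640 FPKM in Nex_cKO and 0.615 to 0.987 FPKM in Nex_Ctrl libraries, which overlapped. Sim1 and Rax were at 0 in all 6. Of 13 markers listed, 2 were tested, both as joined loci, and neither passed. The locus that joins Kiss1, the kisspeptin precursor, with Golt1a had 5.93, 9.65 and 5.63 FPKM in Nex_cKO and 4.66, 1.45 and 2.79 FPKM in Nex_Ctrl libraries (log2 change 1.07, adjusted p = 0.0573), and the groups did not overlap. Ghrh, the precursor of growth hormone-releasing hormone, had 1.69 FPKM in Nex_cKO replicate 2, the library with the highest Avp, had 0.169 FPKM in replicate 1 and 0 in replicate 3, and was listed at 0 in all controls. Oxt, the oxytocin precursor next to Avp on chromosome 2, could be read only with Mrps26, at 38.3, 45.6 and 34.1 FPKM in Nex_cKO and 42.0, 40.3 and 41.5 FPKM in Nex_Ctrl libraries (log2 change -0.08, adjusted p = 0.695). The part of these markers in the Avp result was not tested.

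Cartpt (ENSMUSG00000021647, chromosome 13, 99898489 to 99901091) encodes the cocaine- and amphetamine-regulated transcript peptide, which is known for its part in feeding and reward. It had 1.998, 3.38 and 2.902 FPKM in Nex_cKO and 13.2, 7.20 and 8.18 FPKM in Nex_Ctrl libraries. Every cKO value lay below every control value, and Nex_Ctrl replicate 1 was the highest. The mean ratio of Nex_cKO over Nex_Ctrl was 0.289 and the log2 change -1.46 (SE 0.21, adjusted p = 0.00333).

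**Figure D1:**
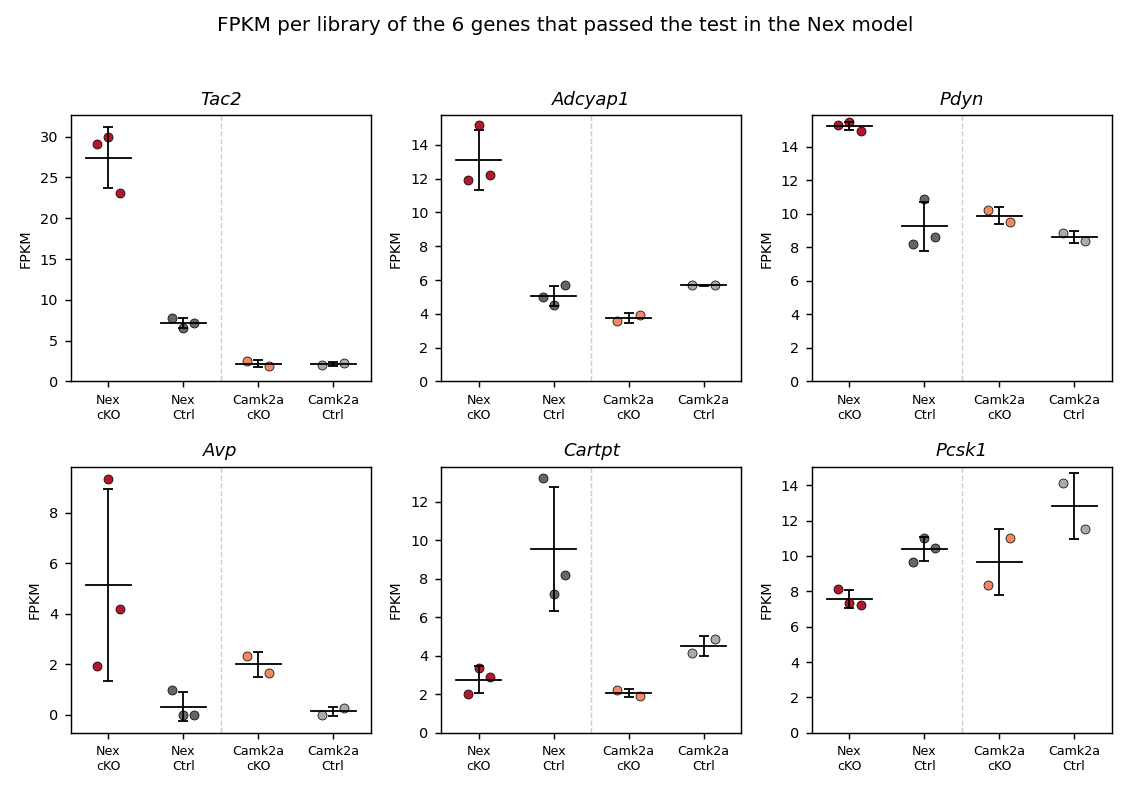
FPKM of the 6 genes that passed the test in the Nex model, in each library (points) with group means and SD (lines and bars), for Nex_cKO, Nex_Ctrl, Camk2a_cKO and Camk2a_Ctrl from left to right. Tac2 at 23.1 to 29.97 FPKM in Nex_cKO stands above 6.55 to 7.78 FPKM in Nex_Ctrl, while its Camk2a groups overlap, and each vertical axis has its own range.

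A few abundant precursors were the bulk of peptide precursor RNA, and bulk tissue does not say which cells made it. Cck, Sst and Npy together made up 86.4% to 89.5% of the summed precursor FPKM in Nex_cKO and 90.6% to 92.0% in Nex_Ctrl libraries. Cck, the cholecystokinin precursor, had 768, 851 and 508 FPKM in Nex_cKO and 736, 704 and 822 FPKM in Nex_Ctrl libraries. Nex_cKO replicate 3 was the lowest of the 6 libraries and Nex_cKO replicate 2 the highest (log2 change -0.12, adjusted p = 0.746). Sst, the somatostatin precursor, had 330, 430 and 246 FPKM in Nex_cKO and 462, 406 and 499 FPKM in Nex_Ctrl libraries. Nex_cKO replicates 1 and 3 were below the controls and replicate 2 was among them (log2 change -0.47, adjusted p = 0.166). Npy, the precursor of neuropeptide Y, had 238, 233 and 156 FPKM in Nex_cKO and 214, 203 and 224 FPKM in Nex_Ctrl libraries. The control values lay between the low replicate 3 and the other knockouts (log2 change -0.06, adjusted p = 0.862). The signs of Cck and Npy turned with quantile normalization (log2 changes 0.05 and 0.06) and without Nex_cKO replicate 3 (0.10 and 0.14).

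Cort, the precursor of cortistatin and a close relative of Sst, had 4.56, 11.96 and 2.52 FPKM in Nex_cKO and 7.32, 7.87 and 8.08 FPKM in Nex_Ctrl libraries. The cKO values were spread on both sides of a tight control group (log2 change -0.47, adjusted p = 0.507). Crh, the precursor of corticotropin-releasing hormone, had 7.27, 10.9 and 8.16 FPKM in Nex_cKO and 9.45, 5.11 and 6.75 FPKM in Nex_Ctrl libraries, and the groups overlapped (log2 change 0.29, adjusted p = 0.429). Without Nex_cKO replicate 2, Sst was lower (log2 change -0.67, adjusted p = 0.0278), and so was Cort (log2 change -0.98, adjusted p = 0.0127).

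Transcripts of interneurons that are no peptide precursors stood beside these. Of 27 tested, 2 were higher (Gad2, which makes GABA, and Nos1, neuronal nitric oxide synthase) and 0 lower, with a median log2 change of 0.08. Among all tested genes 4.47% were higher and 4.06% lower. Their summed FPKM was 579, 612 and 473 in Nex_cKO and 517, 514 and 545 in Nex_Ctrl libraries. As for Cck, Nex_cKO replicate 3 was the lowest and replicate 2 the highest of the 6 libraries for Pvalb, at 77.2 and 135 FPKM. In bulk tissue, fewer cells of a type and less RNA per cell cannot be told apart.

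**Figure D2:**
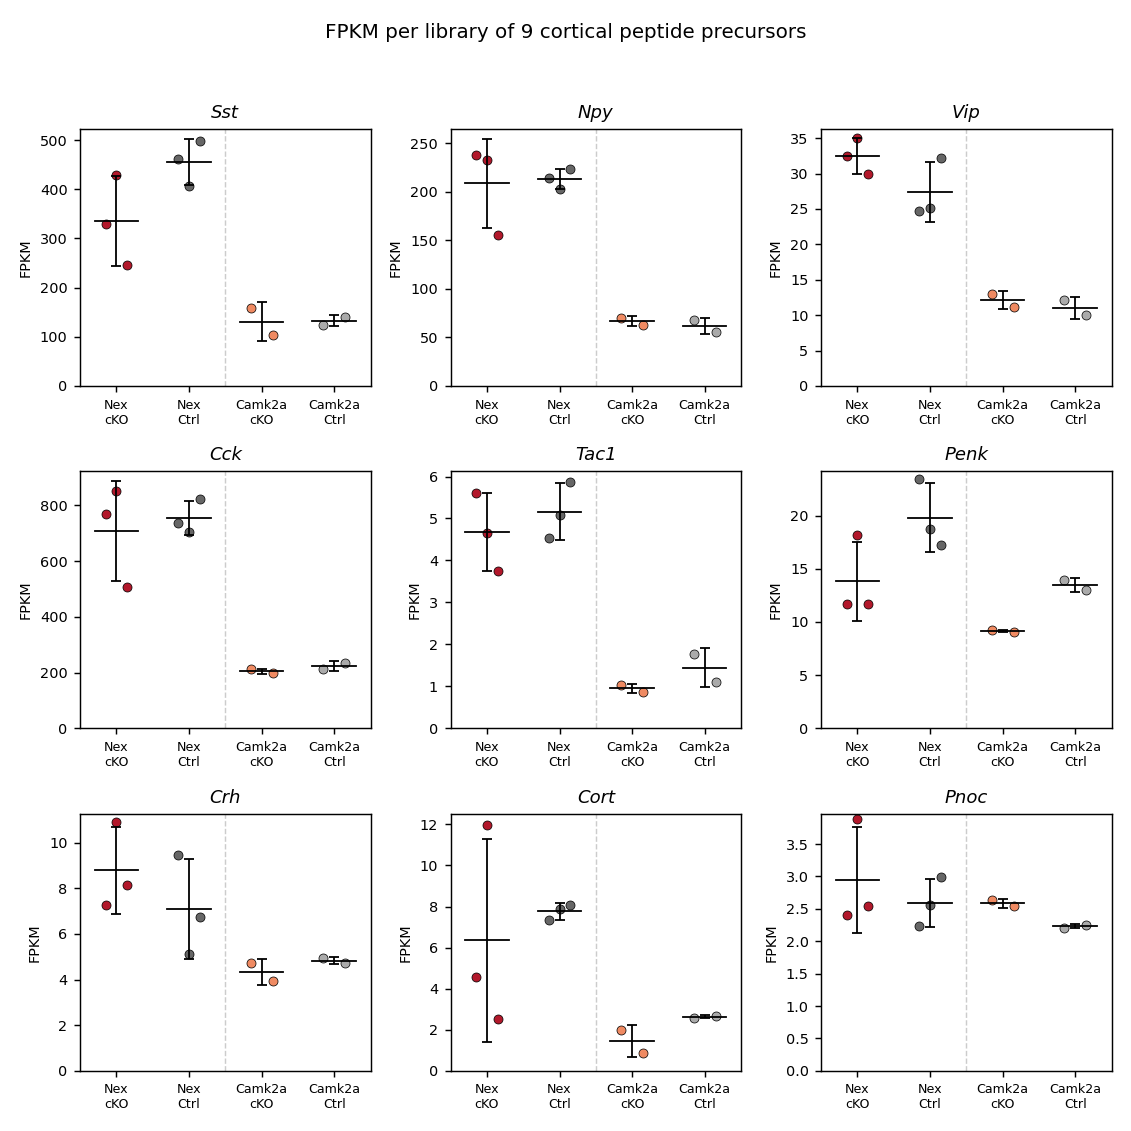
FPKM of 9 cortical peptide precursors in each library (points) with group means and SD (lines and bars), for Nex_cKO, Nex_Ctrl, Camk2a_cKO and Camk2a_Ctrl from left to right. None passed the test in either model, and Nex_cKO replicate 3 is the lowest of the 6 Nex libraries for Sst, Npy, Cck, Tac1, Cort and, narrowly, Penk.

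The remaining precursors were low or did not pass. Apln, the precursor of apelin, ranged from 9.74 to 14.0 FPKM in Nex_cKO and from 13.5 to 23.0 FPKM in Nex_Ctrl libraries (adjusted p = 0.25). Grp, the precursor of gastrin-releasing peptide, ranged from 6.30 to 8.87 FPKM in Nex_cKO and from 4.41 to 7.51 FPKM in Nex_Ctrl libraries. Nppc, the precursor of C-type natriuretic peptide, and Edn1, that of an endothelin, had overlapping groups. Nmb, the neuromedin B precursor, had 0.993 to 1.17 FPKM in Nex_cKO and 1.32 to 2.18 FPKM in Nex_Ctrl libraries, which did not overlap (adjusted p = 0.192). The 10 precursors under the filter in the Nex model were Nts, Trh, Gal, Nmu, Nppa, Ucn, Ucn3, Edn3, Rln1 and Rln3, of which Ucn3 and Rln3 were listed at 0 in all 10 libraries of both models. Ucn, the precursor of urocortin, named after its values were seen, had 0.958, 0.423 and 0.961 FPKM in Nex_cKO libraries and 0.312 FPKM in Nex_Ctrl replicate 1, with 0 listed in the other controls. With no filter on low values its log2 change was 0.69 (adjusted p = 0.0491).

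Of the 6 granins 0 passed the test and 2 had unadjusted p under 0.05, both lower in value, with 5 negative log2 changes and a median of -0.19. With quantile normalization or median ratio rescaling 4 of the 6 were negative, and without Nex_cKO replicate 3 they were 3. Scg5, a chaperone of the convertase Pcsk2, had 222, 202 and 148 FPKM in Nex_cKO and 161, 181 and 177 FPKM in Nex_Ctrl libraries. Replicates 1 and 2 of the knockout were above the controls and replicate 3 below (log2 change 0.12, adjusted p = 0.662), and without replicate 3 Scg5 was higher (log2 change 0.29, adjusted p = 0.0459). Vgf, a precursor of several bioactive peptides, had 163, 235 and 137 FPKM in Nex_cKO and 221, 192 and 231 FPKM in Nex_Ctrl libraries (log2 change -0.30, adjusted p = 0.353). Its highest and its lowest library were both knockouts. Chgb, chromogranin B, had 155, 146 and 125 FPKM in Nex_cKO and 136, 147 and 147 FPKM in Nex_Ctrl libraries (log2 change -0.02, adjusted p = 0.93).

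Scg2, which encodes secretogranin II and is named after its values were seen, had 47.1, 56.4 and 36.3 FPKM in Nex_cKO and 62.8, 59.2 and 71.1 FPKM in Nex_Ctrl libraries. All cKO values lay below the controls, but the gene missed the threshold (log2 change -0.48, SE 0.15, adjusted p = 0.0856). The other granins, Scg3 and Chga, had adjusted p of 0.212 and 0.601. Without Nex_cKO replicate 2, which had the highest Chga and Vgf of the 6 libraries, Scg2 (adjusted p = 0.0188), Vgf (adjusted p = 0.0291) and Chga (adjusted p = 0.0417) were lower.

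Among the processing genes, Pcsk1 (ENSMUSG00000021587, chromosome 13, 75089826 to 75134861), a prohormone convertase of dense core vesicles, was lower. It had 8.15, 7.34 and 7.23 FPKM in Nex_cKO and 9.66, 11.03 and 10.4 FPKM in Nex_Ctrl libraries. The groups did not overlap, and the means were 7.57 ± 0.500 FPKM in Nex_cKO and 10.4 ± 0.687 FPKM in Nex_Ctrl cortex (SD, n = 3 each). The ratio of means was 0.730 and the log2 change -0.41 (SE 0.087, adjusted p = 0.0219). The call was lost without Nex_Ctrl replicate 2 (adjusted p = 0.0967) or replicate 3 (adjusted p = 0.0876).

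The more abundant convertase Pcsk2 had 121, 119 and 122 FPKM in Nex_cKO and 111, 115 and 112 FPKM in Nex_Ctrl libraries. All its cKO values were above the controls by a small margin, and it did not pass (log2 change 0.10, adjusted p = 0.402). Pcsk1n, which encodes proSAAS, an inhibitor of the Pcsk1 enzyme, had 436, 491 and 408 FPKM in Nex_cKO and 554, 493 and 576 FPKM in Nex_Ctrl libraries. Its groups just failed to overlap (log2 change -0.28, adjusted p = 0.163). Cpe, carboxypeptidase E, was the most abundant of the 42 genes, with 1093, 1115 and 1079 FPKM in Nex_cKO and 1067, 1058 and 1049 FPKM in Nex_Ctrl libraries (log2 change 0.05, adjusted p = 0.816). A second Cpe row of the same table, not tested, held 205, 230 and 475 FPKM in Nex_cKO and 336, 294 and 372 FPKM in Nex_Ctrl libraries. The locus that joins Pam, the amidating enzyme, with B230216N24Rik had 40.4 to 47.1 FPKM in Nex_cKO and 47.3 to 53.3 FPKM in Nex_Ctrl libraries (adjusted p = 0.219).

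Receptors, vesicle proteins and further peptidases of the pathway were counted from lists beside the 42 genes. For comparison, 8.53% of all tested genes were called, 4.47% as higher and 4.06% as lower. Of 23 tested receptors for these peptides, 2 were higher and 3 lower, with a median log2 change of 0.03. Crhr1, the receptor of corticotropin-releasing hormone, had 7.84, 8.67 and 8.43 FPKM in Nex_cKO and 14.7, 12.4 and 14.2 FPKM in Nex_Ctrl libraries (log2 change -0.66, adjusted p = 0.00203). The somatostatin receptor Sstr4 had 8.33, 7.75 and 8.38 FPKM in Nex_cKO and 11.9, 13.3 and 12.1 FPKM in Nex_Ctrl libraries (log2 change -0.55, adjusted p = 0.00327). Both were lower in every cKO library than in any control, and a second somatostatin receptor, Sstr2, named after its values were seen, was also lower (log2 change -0.74, adjusted p = 0.0344). The other somatostatin receptors tested, Sstr1 (log2 change 0.24, adjusted p = 0.278) and Sstr3 (log2 change -0.27, adjusted p = 0.385), did not pass. The call of Sstr2 was lost with no filter on low values, without Nex_cKO replicate 1 and without any one Nex_Ctrl library (adjusted p of 0.0593 to 0.124). The higher receptors were Npr1, for natriuretic peptides, with 2.94, 3.29 and 1.42 FPKM in Nex_cKO and 0.290, 0.316 and 0.389 FPKM in Nex_Ctrl libraries (adjusted p = 0.00372), and Trhr2, for thyrotropin-releasing hormone, with 5.41, 7.16 and 5.37 FPKM in Nex_cKO and 3.27, 2.73 and 3.17 FPKM in Nex_Ctrl libraries (adjusted p = 0.00529). Npr1 was below the filter in every control library and entered the test only through its knockout libraries, so it had to differ and supports nothing. Without it 1 of 22 receptors was higher.

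Of 21 tested genes of dense core vesicle formation and release, 0 were higher and 2 lower, near the 8.53% of all tested genes that were called. Their median log2 change was -0.08, against -0.04 over all tested genes. Cadps2, which primes such vesicles for release, had 23.3, 22.3 and 24.3 FPKM in Nex_cKO and 40.8, 33.4 and 32.0 FPKM in Nex_Ctrl libraries (log2 change -0.58, adjusted p = 0.00695). The other was Ptprn2, a vesicle membrane protein (log2 change -0.32, adjusted p = 0.0398). Cadps2 alone was called with quantile normalization, with median ratio rescaling, and without each Nex library in turn other than Nex_cKO replicate 3. Among 23 tested further peptidases and modifying enzymes, the peptidase Dpp4 was higher (log2 change 0.87, adjusted p = 0.00307). In the same list 2 were lower, Rnpep (log2 change -0.51, adjusted p = 0.00518) and Qpct, which forms pyroglutamate ends (log2 change -0.73, adjusted p = 0.0417), and the median was -0.13. The lower ones numbered 4 without Nex_cKO replicate 2 and 1 without Nex_cKO replicates 1 or 3, without Nex_Ctrl replicates 1 or 3, with no filter on low values, or with median ratio rescaling.

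Markers of other cells and neighbouring regions that also hold peptide precursors were summed per library. Their calls stand beside 4.47% of all tested genes called as higher and 4.06% as lower. Those of striatum, a rich source of Penk, Pdyn and Tac1 RNA, summed to 146, 187 and 140 FPKM in Nex_cKO and 152, 156 and 156 FPKM in Nex_Ctrl libraries, with 0 of 10 tested higher and 2 lower. Those of hippocampus summed to 76.5, 96.1 and 86.9 FPKM in Nex_cKO and 41.7, 42.3 and 45.9 FPKM in Nex_Ctrl libraries. That sum was carried by Wfs1 and Cpne7, the 2 of 8 tested that were higher, which were also present in Nex_Ctrl libraries at 17.7 to 19.9 and 4.16 to 5.59 FPKM. The dentate markers Prox1, at 1.32 to 1.67 FPKM in Nex_cKO and 1.22 to 1.53 FPKM in Nex_Ctrl, and Dsp, at 0.037 FPKM or below in all 6 libraries, overlapped between the groups. Choroid plexus markers summed to 5.38, 4.48 and 3.06 FPKM in Nex_cKO and 1.73, 1.72 and 1.84 FPKM in Nex_Ctrl libraries. Kl had 0.697 to 1.14 FPKM in Nex_cKO and 0.235 to 0.277 FPKM in Nex_Ctrl libraries. Folr1 had 0.342 to 1.78 and 0.096 to 0.184 FPKM, and Ttr 1.10 to 2.07 and 0.768 to 0.959 FPKM, in the same order. Clic6 was below the controls in every knockout library, and Aqp1, Kcne2 and Kcnj13 overlapped. Otx2 was at 0 in all 6, and the 1 tested gene, Ttr, was not called. The part of these transcripts in the changes of Tac2, Adcyap1 and Pdyn was not tested.

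For the other cell types, 1 of 6 excitatory markers was higher (Neurod2) and 2 lower (Tbr1 and Neurod6). Neurod6, the gene that names the Nex driver, had 17.2, 22.2 and 14.6 FPKM in Nex_cKO libraries. It had 34.0, 29.4 and 31.5 FPKM in Nex_Ctrl libraries (log2 change -0.80, limma adjusted p = 0.00718). The part of the driver in this value and in the other calls of the Nex model was not tested. Of astrocyte and microglial markers, 1 of 10 each were higher with 0 lower. Oligodendrocyte markers had 0 higher and 2 lower of 10, endothelial markers 1 higher and 2 lower of 12, and haemoglobin loci 0 higher and 3 lower of 3. The shares of all tested genes were 4.47% higher and 4.06% lower. Blood transcripts summed to 54.2, 77.1 and 97.4 FPKM in Nex_cKO and 287, 130 and 276 FPKM in Nex_Ctrl libraries.

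Single libraries moved many of the 32 tested genes at once. Nex_cKO replicate 3 was the lowest of the 6 libraries for 15 of the 32, against 32.7% of all tested genes. Nex_cKO replicate 2 was the highest of the 6 for 14 of the 32, against 13.8% of all tested genes. Tac2, Adcyap1, Pdyn, Cartpt and Pcsk1 kept their side of the controls in all 3 knockout libraries. So did Avp, Nmb, Scg2, Scg3, Pcsk2, Pcsk1n, Cpe and the Pam locus, and 30.4% of all tested genes had groups that did not overlap. A call favours groups that lie apart, so the separation adds no support to the calls.

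**Figure D3:**
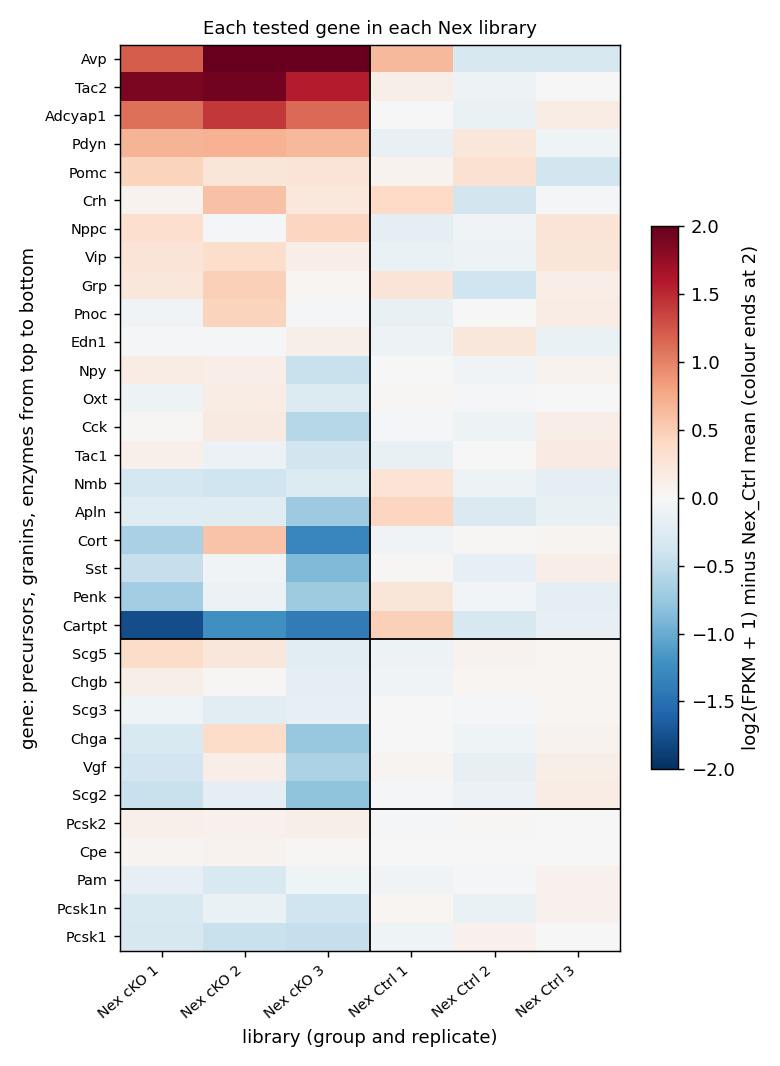
Each tested gene (rows) in each Nex library (columns, knockouts left), coloured by log2(FPKM + 1) minus the mean of the 3 Nex_Ctrl libraries, with colour ending at 2 in either direction. Black lines part precursors, granins and processing genes, and Nex_cKO replicate 3 is the bluest column for Sst, Npy, Cck, Cort, Chga, Vgf and Scg2.

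As a description, the genes with the most similar profile to 3 of the called precursors over the 6 Nex libraries were sought by Pearson r of log2(FPKM + 1). These 6 points share the split into knockout and control, which sets most of each r. The closest to Tac2 were Ftcd, Ccdc42 and Acvrl1 (r = 0.998 each). The closest to Adcyap1 were Dupd1 (r = 0.998), Cpne7 (r = 0.996) and Cast (r = 0.996). For Cartpt they were the joined locus of Cyb5r4 and Ripply2 (r = 0.997), Me1 (r = 0.996) and Osbpl3 (r = 0.994).

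The second comparison asks the same of deletion in mature excitatory neurons, with 2 libraries a group at 3 months. None of the 31 genes tested passed, and 0% of the 12919 genes tested passed in either direction by limma with Benjamini-Hochberg adjustment. At unadjusted p under 0.05 there were 6 of the 31 (1 higher and 5 lower in value), against 6.96% of all tested genes, and limma voom on the recovered reads called 0 of the 31 and 1 gene in all, Asb2. The groups did not overlap for 15 of the 31, against 37.3% of all tested genes. Avp, the 1 higher at unadjusted p, entered this test only through its knockout libraries. It therefore had to differ, and it supports nothing in the 6 and the 15 that count it. The median log2 change was -0.04, against -0.01 over all tested genes.

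Cartpt had 2.1996 and 1.91 FPKM in Camk2a_cKO and 4.14 and 4.87 FPKM in Camk2a_Ctrl libraries, from 50 and 41 reads in Camk2a_cKO and 91 and 123 reads in Camk2a_Ctrl. The knockouts lay below the controls as in the Nex model (log2 change -0.85, SE 0.13, unadjusted p = 0.000573, adjusted p = 0.362). Penk had 9.21 and 9.10 FPKM in Camk2a_cKO and 13.9 and 13.0 FPKM in Camk2a_Ctrl libraries (log2 change -0.51, adjusted p = 0.39). Scg2 had 36.6 and 53.7 FPKM in Camk2a_cKO and 67.3 and 69.2 FPKM in Camk2a_Ctrl libraries (log2 change -0.61, adjusted p = 0.552). Both were below the controls without passing the test.

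Adcyap1 had 3.55 and 3.96 FPKM in Camk2a_cKO and 5.68 and 5.72 FPKM in Camk2a_Ctrl libraries (log2 change -0.50, adjusted p = 0.474), the opposite order to the Nex model. Tac2 had 2.53 and 1.86 FPKM in Camk2a_cKO and 1.98 and 2.31 FPKM in Camk2a_Ctrl libraries, which overlapped (log2 change 0.01, adjusted p = 0.994). Its sign turned in 3 alternatives, with log2 changes of -0.02 to -0.14. Pdyn had 10.3 and 9.52 FPKM in Camk2a_cKO and 8.88 and 8.37 FPKM in Camk2a_Ctrl libraries (log2 change 0.18, adjusted p = 0.803).

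Avp had 24 and 16 reads in Camk2a_cKO and 0 and 3 reads in Camk2a_Ctrl libraries, or 2.34 and 1.65 FPKM in Camk2a_cKO and 0 and 0.263 FPKM in Camk2a_Ctrl (adjusted p = 0.342). In this model too Avp entered the test only through its knockout libraries, so its direction supports nothing. Oxt, read by itself in this table and named after its values were seen, had 10 and 5 reads in Camk2a_cKO and 0 reads in both Camk2a_Ctrl libraries, where a count of 0 allows up to 3 reads. Both neurohypophysial precursors were thus near the limit of detection in controls, counting error alone considered. The hypothalamic markers summed to 1.77 and 0.974 FPKM in Camk2a_cKO and 1.12 and 1.29 FPKM in Camk2a_Ctrl libraries, and their part in these counts was not tested.

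Among the cortical interneuron precursors, Sst had 158 and 104 FPKM in Camk2a_cKO and 124 and 141 FPKM in Camk2a_Ctrl libraries. Npy had 70.2 and 63.3 FPKM in Camk2a_cKO and 67.6 and 55.7 FPKM in Camk2a_Ctrl libraries. Cck had 211 and 197 FPKM in Camk2a_cKO and 212 and 236 FPKM in Camk2a_Ctrl libraries. Of these only Cck had groups that did not overlap, and by a narrow margin. Vip had 13.0 and 11.2 FPKM in Camk2a_cKO and 12.1 and 9.96 FPKM in Camk2a_Ctrl libraries. Tac1 had 1.02 and 0.875 FPKM in Camk2a_cKO and 1.78 and 1.12 FPKM in Camk2a_Ctrl libraries. Crh had 4.72 and 3.92 FPKM in Camk2a_cKO and 4.93 and 4.71 FPKM in Camk2a_Ctrl libraries. Adjusted p of these 6 lay at 0.817 or above. Cort had 1.99 and 0.879 FPKM in Camk2a_cKO and 2.58 and 2.69 FPKM in Camk2a_Ctrl libraries (adjusted p = 0.675), and Pnoc had 2.63 and 2.54 FPKM in Camk2a_cKO and 2.21 and 2.25 FPKM in Camk2a_Ctrl libraries (adjusted p = 0.868).

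The convertase Pcsk1 had 8.35 and 10.995 FPKM in Camk2a_cKO and 14.1 and 11.5 FPKM in Camk2a_Ctrl libraries (log2 change -0.38, adjusted p = 0.719). As in the Nex model both knockout values were below the controls. Pcsk2 had 56.4 and 58.3 FPKM in Camk2a_cKO and 60.2 and 59.9 FPKM in Camk2a_Ctrl libraries. Cpe had 760 and 790 FPKM in Camk2a_cKO and 768 and 790 FPKM in Camk2a_Ctrl libraries. Pcsk1n had 367 and 330 FPKM in Camk2a_cKO and 290 and 340 FPKM in Camk2a_Ctrl libraries. Of these 3, the groups of Pcsk2 alone did not overlap. Pam, read by itself here, had 16.2 and 21.3 FPKM in Camk2a_cKO and 19.6 and 21.4 FPKM in Camk2a_Ctrl libraries. Among granins, Scg5 had 130 and 108 FPKM in Camk2a_cKO and 105 and 109 FPKM in Camk2a_Ctrl libraries, and Vgf had 93.2 and 110 FPKM in Camk2a_cKO and 106 and 118 FPKM in Camk2a_Ctrl libraries. Chgb had 127 and 154 FPKM in Camk2a_cKO and 113 and 123 FPKM in Camk2a_Ctrl libraries (adjusted p = 0.771). The lists of receptors, vesicle genes, further enzymes and cell type markers had 0 genes called in this model by limma. At unadjusted p under 0.05 there were 5 of 21 receptors, 3 of 23 vesicle genes, 2 of 19 further enzymes and 0 to 3 genes in each marker list. Among all tested genes that share was 6.96%.

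**Figure D4:**
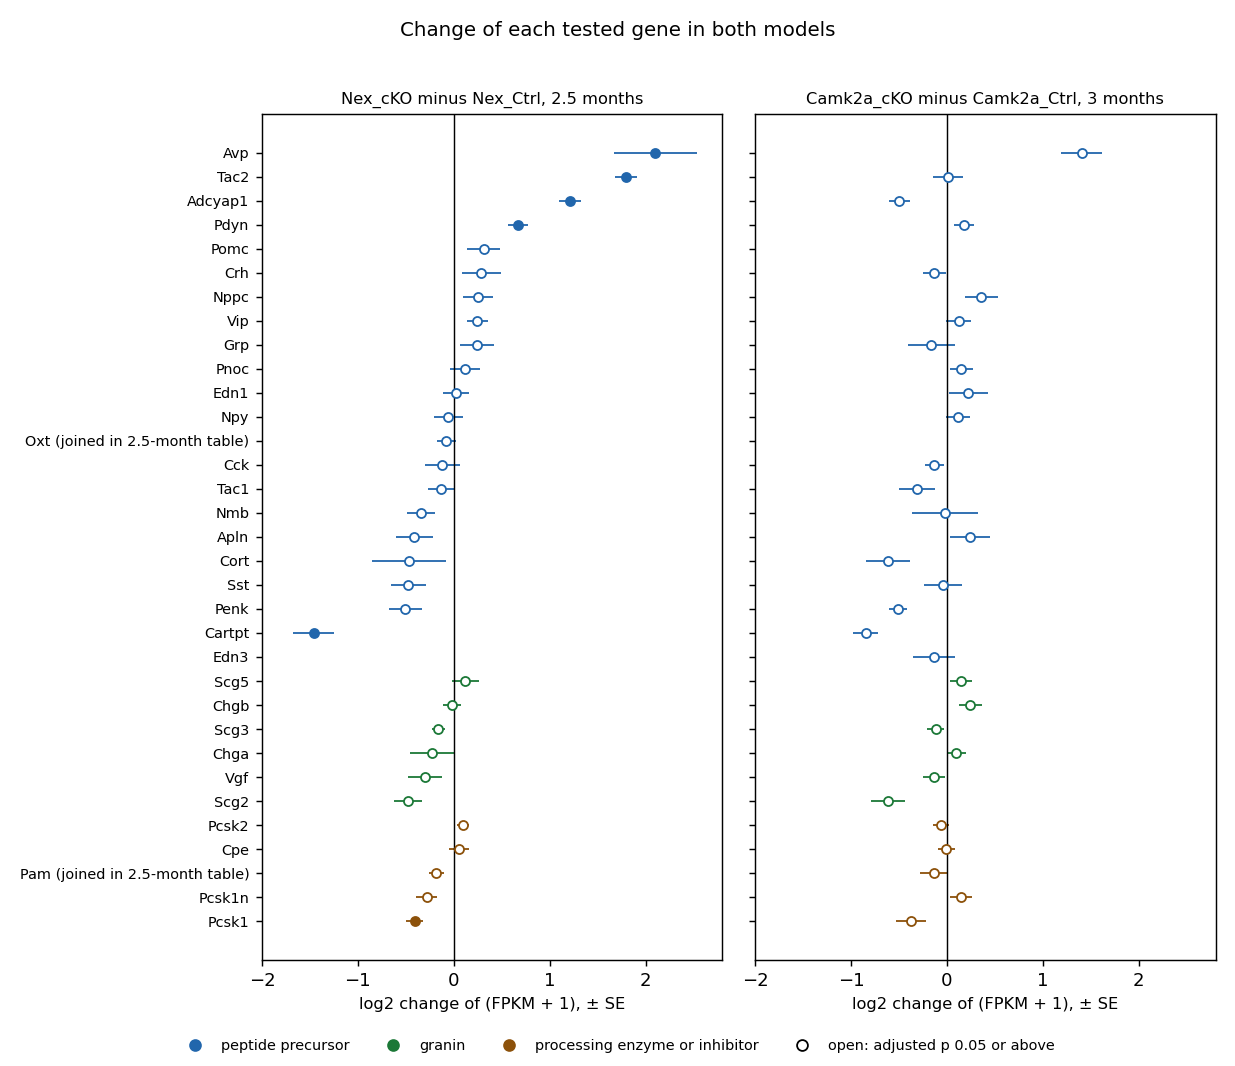
Log2 change of (FPKM + 1), knockout minus control, with SE, for each tested gene in the Nex model (left) and the Camk2a model (right), filled where adjusted p is under 0.05. Filled points are the 6 calls of the Nex model, Tac2 and Adcyap1 stand at 1.80 and 1.21 on the left and at 0.01 and -0.50 on the right, and genes with no point in a panel were not tested there.

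A limma fit over the 10406 genes that passed the filter in both tables asked whether a gene's change in the Nex model differed from its change in the Camk2a model. Tac2 and Adcyap1 differed, 2 of the 29 genes tested, both with the larger change in the Nex model, against 0.529% of all tested genes called in either direction and 0.375% in that direction. The difference of log2 changes was 1.78 for Tac2 (SE 0.19, adjusted p = 0.0016) and 1.71 for Adcyap1 (SE 0.17, adjusted p = 0.0016). For the other genes called in the Nex model it was 0.50 for Pdyn (adjusted p = 0.19), 0.70 for Avp (adjusted p = 0.653), -0.61 for Cartpt (adjusted p = 0.407) and -0.03 for Pcsk1 (adjusted p = 0.952). Age, driver and gene models of the table all changed from one model to the other, and so did the sex-linked transcripts, with Ddx3y at 0 in 5 of 6 Nex libraries and at 10.98 to 12.35 FPKM in all 4 Camk2a libraries, so their parts in a difference cannot be told apart. The 2 models had changes of the same sign in 19 of the 29 genes (65.5%), against 49.9% of all genes tested in both. Among those called in the Nex model the sign was shared by 5 of 6, against 67.1% of all genes called there. The 19 and the 5 both include Avp, which entered the test only through its knockout libraries in both models. Its shared sign was therefore set by the filter and supports nothing.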

How the data were processed

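Total RNA of bulk somatosensory cortex was converted to sequencing libraries (NEBNext Ultra II RNA kit, per the labels' protocols). Cutadapt, STAR, Cufflinks 2.2.1 and DESeq2 are named in the submitters' processing notes, with no role or order, as are the builds GRCm38 and mm10. The authors deposited FPKM values in 1 table per model, with different gene models, so each table was fitted apart. Of several rows with 1 name, that with the highest mean was used, and unnamed rows (4463 of 29610 in the 2.5-month table) were left out. Reads of the 3-month table were recovered from FPKM and the deposited gene length, and 100% of values came out whole within 0.1.

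A gene was tested if FPKM reached 1 in as many libraries as the smaller group holds. Knockout and control were compared as log2(FPKM + 1) with limma 3.58.1 (lmFit, eBayes with trend), run in R 4.3.3. Tests are two-sided, with Benjamini-Hochberg adjustment over all tested genes and a threshold of 0.05, and "higher" and "lower" stand for calls. Log2 changes understate ratios of genes with low FPKM. The script was tested on simulated data.

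The 42 genes and all lists were chosen with earlier results of these data known. Values per library were given for called genes, the 3 most abundant of each class and the textbook precursors of cortex, and list genes by smallest p, at most 4 a list. Alternatives were a pseudocount of 0.1, no filter, quantile normalization, median ratio rescaling, a replicate block, limma voom on recovered reads, and leaving out each library. Gene positions come from the 3-month table (build GRCm38). One result of a list beside the 42 genes is not reported here.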

Additional observations from a re-analysis of the deposited data

Results flagged for a closer look

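The changes of 2 precursors differed between the models by the test of the difference itself. For Tac2 the log2 change in the Nex model minus that in the Camk2a model was 1.78, and for Adcyap1 it was 1.71. Both passed the threshold in all 14 alternatives, with adjusted p from 0.00115 to 0.0142 for Tac2 and from 0.000948 to 0.0142 for Adcyap1.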

How the results depend on the processing

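Of the Nex model's calls, Tac2, Adcyap1, Pdyn and Cartpt held in all 11 alternatives, with highest adjusted p of 0.00036, 0.00267, 0.0252 and 0.0144. Lower genes among the 42 numbered 2, and 1 with the replicate block, which took the call of Pcsk1 (adjusted p = 0.0634), and 1 to 8 when a library was left out. Higher ones numbered 4, and 3 to 5 when a library was left out. Lower vesicle genes numbered 2, and 1 with quantile normalization, with median ratio rescaling and with the block, and 1 to 2 when a library was left out. Lower further enzymes numbered 2, and 1 with no filter, with median ratio rescaling and with the block, and 1 to 4 when a library was left out. Replicate numbers did not pair the libraries: same-numbered deviations correlated at 0.0167, -0.104 and -0.0956 in the Nex model and at 0.0496 in the Camk2a model. Over all genes the block gave 497 higher and 272 lower, against 560 and 509 without it, and median ratio rescaling gave 618 and 298. Leaving out a Nex library gave 443 to 635 higher and 160 to 685 lower over all genes.

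Signs that turned were all of uncalled values, and their cause was not tested. With quantile normalization, the Nex log2 changes were 0.0595 for Npy, 0.0477 for Cck and 0.116 for Chgb, and median ratio rescaling gave 0.0356 for Chgb. With libraries left out they ranged from -0.161 to 0.141 for Npy, from -0.268 to 0.104 for Cck, from -0.0437 to 0.215 for Pnoc, from -0.00086 to 0.292 for Scg5 and from -0.0870 to 0.0718 for Chgb. In the Camk2a model, quantile normalization gave 0.0144 for Sst, -0.0189 for Tac2 and 0.0902 for Cpe, median ratio rescaling gave 0.0134 for Cpe, and voom gave 0.0094 for Sst and 0.0481 for Cpe. With libraries left out, they ranged from -0.347 to 0.260 for Sst, from -0.0200 to 0.255 for Npy, from -0.0047 to 0.254 for Vip, from -0.138 to 0.167 for Tac2 and from -0.036 to 0.0208 for Cpe. The difference between models of Pcsk1 ranged from -0.211 to 0.149. With a Camk2a library left out, the lone sample of its group is assumed to vary like the others. Depth limits Avp, at 24 reads or fewer a library in the 3-month table, and Oxt, at 10 reads or fewer.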
